A study of Homo sapiens with 4 samples.

Results

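The genes of the MYC, MAX and MXD network were followed across 4 RNA sequencing libraries of the established human line HEK293A, whose cells are of embryonic kidney origin. The set comprises 10 genes out of 58736 listed features, chosen by symbol and matched to Ensembl gene identifiers: the activators MYC and MYCN, the partners MAX and MLX, and the repressors MXD1, MXI1, MXD3, MXD4, MNT and MGA. All cells received 1 µg of a FEN1 plasmid per well, FEN1 being a structure-specific flap endonuclease, and 500 pmol of DNA probes 48 h later. The study asks how genes are regulated by FEN1 guided with hairpin-forming DNA probes. It has 2 groups of 2 libraries, replicates 1 and 3 of a negative control and replicates 2 and 3 with the probe NT1_hp2, with total RNA prepared after 72 h. The labels name neither the target of NT1_hp2 nor the control probe. They also do not say whether replicates are separate cultures, and a p-value here covers the spread between libraries, possibly only technical spread.

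MYC proteins are basic helix-loop-helix leucine zipper transcription factors that bind DNA only as dimers with MAX, at sites called E-boxes, and raise transcription of genes for ribosome making, metabolism and the cell cycle. The MXD proteins and MNT compete for MAX, bind the same sites and repress through SIN3 and histone deacetylases. MGA also dimerises with MAX and is the scaffold of a Polycomb complex, and MLX is a MAX-like partner of MXD1, MXD4, MNT and the nutrient-sensing factors MLXIP and MLXIPL. MXD genes are commonly induced as cells stop dividing, and MXI1 is a known target of hypoxia-inducible factors.

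The E-box itself occurs upstream of some of these genes. The palindrome CACGTG was searched on both strands in the 250 bases before each RefSeq start (GRCh38.p14), along with ACGTG and GCGTG, the core letters of hypoxia response elements, which overlap it: CACGTG always contains ACGTG. The counts cover 14 starts for 9 of the 10 genes. MYC was left out of them, while the background covers all promoter windows. CACGTG was present at 3 of these starts, those of MXD4, MNT and MLX, against 6.34% of 35116 promoter windows of the same length. One of the cores ACGTG or GCGTG was present at 9 of the 14 starts, against 43.2% of all windows. The sequences below are the counted windows with an E-box. After them come those of MXD1 and of 1 of 3 MXI1 starts, the members called higher in NT1_hp2. All run 5′ to 3′ on the gene's strand up to the base before the start, and capitals mark every match to the 3 motifs.
MXD4, chr4:2262110-2262359, minus strand: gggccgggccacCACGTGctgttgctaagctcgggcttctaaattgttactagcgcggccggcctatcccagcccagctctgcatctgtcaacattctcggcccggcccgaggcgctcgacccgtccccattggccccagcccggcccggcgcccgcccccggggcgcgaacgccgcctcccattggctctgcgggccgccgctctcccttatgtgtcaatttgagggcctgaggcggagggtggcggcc
MNT, chr17:2401061-2401310, minus strand: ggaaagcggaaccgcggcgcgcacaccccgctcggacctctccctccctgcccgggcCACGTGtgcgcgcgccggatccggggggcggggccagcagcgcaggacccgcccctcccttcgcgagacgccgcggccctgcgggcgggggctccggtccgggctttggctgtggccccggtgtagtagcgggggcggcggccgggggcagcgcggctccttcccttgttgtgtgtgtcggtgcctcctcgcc
MLX, chr17:42566850-42567099, plus strand: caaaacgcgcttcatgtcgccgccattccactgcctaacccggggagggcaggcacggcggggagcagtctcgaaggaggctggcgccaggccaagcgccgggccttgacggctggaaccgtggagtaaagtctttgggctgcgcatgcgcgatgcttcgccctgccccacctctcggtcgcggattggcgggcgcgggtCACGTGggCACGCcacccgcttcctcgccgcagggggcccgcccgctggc
MXD1, chr2:69914859-69915108, plus strand: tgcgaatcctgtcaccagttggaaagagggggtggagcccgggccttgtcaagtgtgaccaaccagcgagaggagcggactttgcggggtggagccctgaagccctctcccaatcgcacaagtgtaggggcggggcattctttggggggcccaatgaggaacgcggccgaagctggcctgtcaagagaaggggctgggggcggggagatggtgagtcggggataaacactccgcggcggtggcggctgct
MXI1, chr10:110209981-110210230, plus strand: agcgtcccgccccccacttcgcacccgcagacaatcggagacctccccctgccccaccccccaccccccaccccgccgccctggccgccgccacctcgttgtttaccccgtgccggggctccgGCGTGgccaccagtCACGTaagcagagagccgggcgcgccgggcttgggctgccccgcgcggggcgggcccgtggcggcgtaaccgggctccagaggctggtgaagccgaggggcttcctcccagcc
The E-box began 238 bases before the start in MXD4, 193 bases before it in MNT and 50 bases before it in MLX. The MXD1 window held none of the 3 motifs, and the MXI1 window held 1 GCGTG and 1 ACGTG, the latter on the opposite strand. The windows of the other MXI1 starts held 0 and 1 of these cores. These matches are letters in a window and were not measured as bound sites.

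Recovered depth was 12557001 to 14972373 reads per library. FPKM here are reads per kilobase of exon, scaled by 1 constant per library. On a transcript of 1 kilobase 3 reads amounted to 0.208 to 0.239 FPKM, a floor that covers counting error alone. The share of mitochondrial reads was 5.89% to 6.03% in the controls and 4.28% to 4.32% with NT1_hp2. Of markers for the line, KRT8, KRT18, KRT19 and VIM were at 19.1 to 112 FPKM and CDH2 at 14.6 to 15.8. The kidney factors PAX2 and PAX8 were at 0.0478 to 0.542 FPKM, and the blood genes PTPRC, CD3E and HBB had 0 reads. Of neural genes, NEFL and ENO2 were at 46.3 to 59.4 FPKM and NEFM at 0.550 to 0.840. Of fibroblast genes, COL1A1 was at 7.85 to 8.44 FPKM, COL3A1 at 3.05 to 3.86 and DCN at 0.00541 to 0.00620. Limma-trend on log2(FPKM + 1), with Benjamini-Hochberg adjustment over 16362 genes tested, called 818 genes higher and 1460 lower at an adjusted p under 0.05, so that 35.9% of the calls were higher. That share was 53.9% with libraries scaled to total reads and 46.7% with limma-voom on the recovered reads. Across all tested genes the difference also varied with GC content, measured on the longest transcript. Its median log2 value was 0.22 for the 2800 genes of at most 40% GC and −0.36 for the 618 genes above 65% GC.

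In the deposited values, the mix of MXD repressor mRNAs differed between NT1_hp2 and the negative control, a description chosen after the values were seen. MXI1 rose 1.44-fold and MXD1 1.39-fold, MXD4 fell to 0.702 of its control level, and the mean summed level of the 4 MXD genes was 55.5 ± 4.01 FPKM in the controls and 56.1 ± 0.752 in NT1_hp2 (mean ± SD, n = 2). The activator MYC was measured at 0.808 of its control level without passing the test, and the shared partner MAX was at 0.968. Among the 10 genes, 9 had at least 1 FPKM in at least 2 libraries and were tested, and MYCN was not. Of the 9, 2 were called higher, where 5.00% of all tested genes were, and 1 was called lower, where 8.92% were. The groups did not overlap for 8 of the 9, 3 higher and 5 lower, as was the case for 66.8% of all tested genes. The median log2 difference of the 9 was −0.27, and it was −0.01 over all tested genes. The 3 calls were lost when any 1 library was left out or the filter on low values was dropped, in fits where at most 1 gene of all those tested passed. With length and GC trends removed MXI1 was the 1 member called, MXD1 being at 0.30 and MXD4 at −0.28. With limma-voom on the recovered reads 6 of the 9 were called, MXI1 and MXD1 higher and MXD4, MXD3, MNT and MLX lower. That fit called 5801 of all 16362 tested genes, 2711 higher and 3090 lower.

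**Figure D1:**
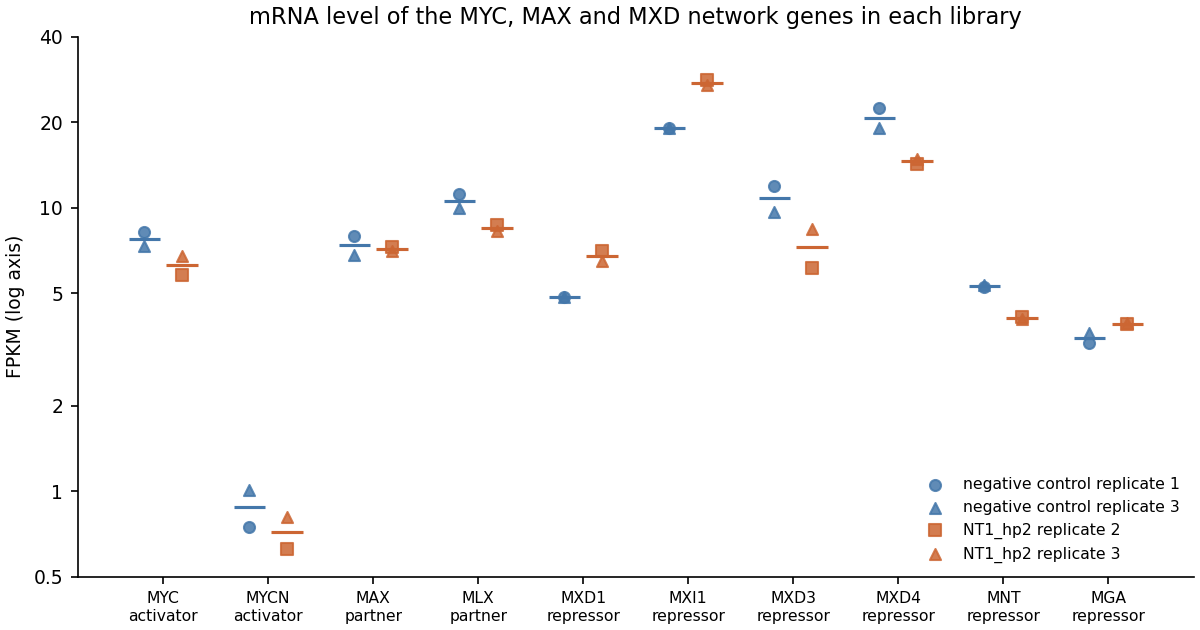
FPKM of each network gene in the 4 libraries (log axis), with points for libraries and short lines for the group means. MXI1 and MXD1 stand higher in both NT1_hp2 libraries, MXD4, MXD3, MNT, MLX and MYC stand lower, and the MAX and MYCN points of the groups overlap.

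MYC (ENSG00000136997, chromosome 8, 127735434 to 127741434, GRCh38), the main activator of the network in most dividing cells, was at 8.19 and 7.32 FPKM in negative control replicates 1 and 3 and at 5.80 and 6.74 FPKM in NT1_hp2 replicates 2 and 3. Both NT1_hp2 libraries were below both controls, and replicate 2 was the lowest. The log2 difference was −0.27 (SE 0.10), which did not pass over all tested genes (limma-trend adjusted p = 0.125). It passed in 1 of 15 alternatives, when protein-coding genes alone were tested (limma-trend adjusted p = 0.0408). That fit called 4716 of its 12149 genes. Without NT1_hp2 replicate 2 it was −0.18, and with the length and GC trends removed −0.08 (limma-trend adjusted p = 0.561). These levels rested on 246 to 354 reads per library.

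MYCN (ENSG00000134323, chromosome 2, 15940564 to 15947007), the paralogue best known from neuroblastoma, was near the filter's minimum, at 0.747 and 1.01 FPKM in the negative control and 0.626 and 0.812 FPKM in NT1_hp2. The groups overlapped, and 23 to 33 reads lay behind each value. The third MYC paralogue, MYCL, was at 1.07 ± 0.291 FPKM in the controls and 1.14 ± 0.0832 in NT1_hp2 (mean ± SD, n = 2), a log2 difference of 0.06 that did not pass (limma-trend adjusted p = 0.869). MYC was therefore the most abundant of the 3 paralogues in each library.

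MAX (ENSG00000125952, chromosome 14, 65006174 to 65102695), the obligate partner of MYC, was at 7.95 and 6.81 FPKM in the negative control and 7.26 and 7.03 FPKM in NT1_hp2. Both NT1_hp2 libraries lay between the controls. Its log2 difference was −0.04 (SE 0.092, limma-trend adjusted p = 0.799), and its sign turned with scaling to total reads, with the length and GC trends removed and without negative control replicate 1. The ratio of MYC to MAX, both per length, was 1.03 and 1.08 in the controls and 0.800 and 0.959 in NT1_hp2.

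MLX (ENSG00000108788, chromosome 17, 42567068 to 42573239) was at 11.2 and 10.0 FPKM in the negative control and 8.66 and 8.25 FPKM in NT1_hp2, with groups that did not overlap. The log2 difference of −0.29 (SE 0.080) did not pass (limma-trend adjusted p = 0.0702). PSMC3IP, a recombination cofactor gene on the opposite strand, covers 18.1% of the MLX exon bases, and the library kit does not mark strand. PSMC3IP fell from 10.7 ± 0.0309 to 8.34 ± 0.303 FPKM, a log2 difference of −0.32 (limma-trend adjusted p = 0.0438), and its part in the MLX value was not tested. Among the other partners of MLX, MLXIP (MondoA) was at 8.06 ± 0.0468 FPKM in the controls and 6.65 ± 0.345 in NT1_hp2, and MLXIPL (ChREBP) at 6.67 ± 0.251 and 5.70 ± 0.933. Neither passed (limma-trend adjusted p = 0.0804 and 0.270).

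MXI1 (ENSG00000119950, chromosome 10, 110207605 to 110287365), a repressor that antagonises MYC, was at 19.1 FPKM in both negative control libraries and at 28.2 and 26.9 FPKM in NT1_hp2. The control libraries were nearly equal and both NT1_hp2 libraries were well above them. The log2 difference was 0.51 (SE 0.062, limma-trend adjusted p = 0.0340), on 1104 to 1838 reads per library. It stayed between 0.45 and 0.58 under all 15 alternatives and between 0.47 and 0.54 when any 1 library was left out. The call itself was lost when any 1 library was left out. It was also lost without the filter on low values (limma-trend adjusted p = 0.134), where 0 genes passed.

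MXD1 (ENSG00000059728, chromosome 2, 69897688 to 69942945), the founding MXD repressor, was at 4.84 and 4.85 FPKM in the negative control and at 7.02 and 6.48 FPKM in NT1_hp2. As for MXI1, the controls were close together and the groups did not overlap. The rise was 0.41 on the log2 scale (SE 0.077, limma-trend adjusted p = 0.0409), a call lost with the length and GC trends removed (adjusted p = 0.0759). Its exons share 237 bases, 3.73% of their length, with SNRNP27 on the same strand. SNRNP27, a spliceosome component gene, was at 11.7 ± 0.462 and 14.6 ± 0.581 FPKM, a log2 difference of 0.29 that did not pass (limma-trend adjusted p = 0.0547).

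MXD4 (ENSG00000123933, chromosome 4, 2247432 to 2262294) went the other way. It was at 22.4 and 19.1 FPKM in the negative control and at 14.2 and 14.9 FPKM in NT1_hp2, with no overlap and more spread between the controls than between the NT1_hp2 libraries. The fall was −0.48 on the log2 scale (SE 0.093, limma-trend adjusted p = 0.0416). It was −0.28 with the length and GC trends removed, where it did not pass (limma-trend adjusted p = 0.0834).

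MXD3 (ENSG00000213347, chromosome 5, 177301461 to 177312757), the member linked to S phase, was at 11.95 and 9.65 FPKM in the negative control and at 6.11 and 8.39 FPKM in NT1_hp2. Its log2 difference of −0.52 was of similar size to that of MXD4, but with wider spread within both groups it did not pass (SE 0.17, limma-trend adjusted p = 0.0985). With limma-voom on recovered reads it passed at −0.57 (adjusted p = 0.000484), while it was −0.24 with the length and GC trends removed. Without NT1_hp2 replicate 2, where MXD3 was lowest, the difference was −0.32. RAB24 on the same strand shares 18% of the MXD3 exon bases and PRELID1 on the opposite strand 22.5%. RAB24 was at 7.72 ± 1.26 and 4.96 ± 0.368 FPKM and PRELID1 at 28.8 ± 2.21 and 23.0 ± 2.70 in the negative control and NT1_hp2, and neither passed (limma-trend adjusted p = 0.0509 and 0.103). How the authors divided reads among these genes is not stated, so the level of MXD3 is uncertain.

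**Figure D2:**
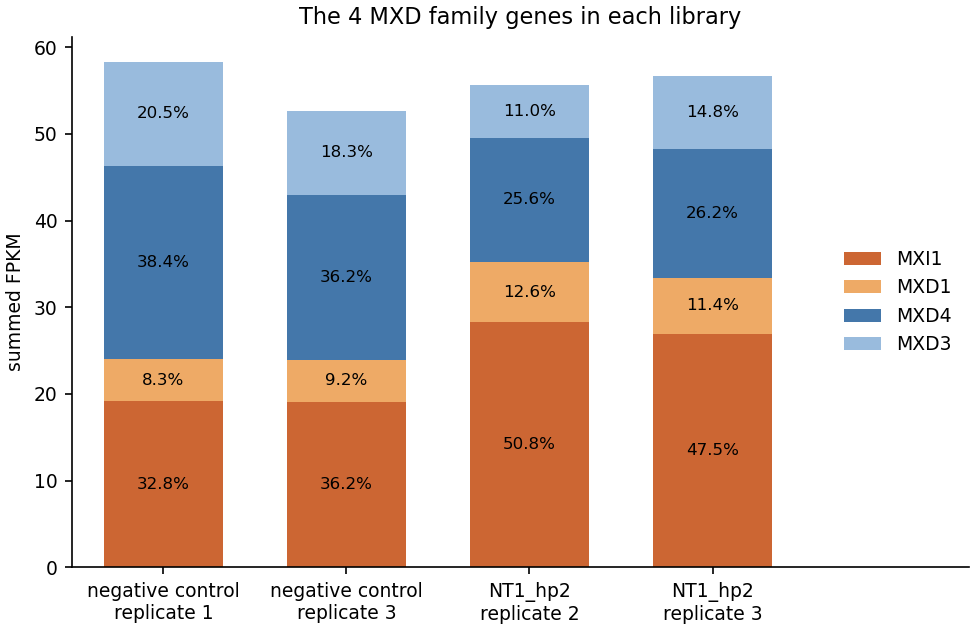
Summed FPKM of MXI1, MXD1, MXD4 and MXD3 in each library, with each gene's percent of the sum printed in its bar segment. The sums run from 52.6 to 58.3 FPKM, and MXI1 takes 32.8% and 36.2% of the sum in the controls and 50.8% and 47.5% in NT1_hp2.

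The make-up of the MXD family was compared on the per-length scale, a description chosen after the values were seen. It uses the values as deposited, with no length or GC trend removed. MXI1 and MXD1 have a lower GC content than MXD4 and MXD3, and the part of the GC trend in these shares was not tested. MXI1 and MXD1 together made up 41.1% and 45.5% of the summed MXD level in the controls and 63.4% and 59.0% in NT1_hp2. MXD4 made up 38.4% and 36.2% in the controls and 25.6% and 26.2% in NT1_hp2. The sums themselves overlapped, at 58.3 and 52.6 FPKM against 55.6 and 56.7 FPKM. The log2 ratio of MXI1 to MXD4 was −0.22 and 0.0011 in the controls and 0.99 and 0.86 in NT1_hp2, so the genes were at similar levels in the controls and MXI1 was ahead in NT1_hp2. With 2 libraries against 2, an exact two-sided permutation test of any such ratio cannot go below p = 0.333.

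MNT (ENSG00000070444, chromosome 17, 2384060 to 2401118), the broadly expressed MYC antagonist, was at 5.27 and 5.35 FPKM in the negative control and 4.11 and 4.06 FPKM in NT1_hp2. The groups were tight and apart, and the log2 difference of −0.31 (SE 0.075) missed the threshold (limma-trend adjusted p = 0.0559). MGA (ENSG00000174197, chromosome 15, 41621224 to 41773081) was at 3.32 and 3.60 FPKM in the negative control and 3.90 and 3.91 FPKM in NT1_hp2. Its log2 difference was 0.14 (SE 0.086, limma-trend adjusted p = 0.307), without overlap of the groups, and it was −0.07 with the length and GC trends removed.

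MYC was compared with the sum of the 6 repressors MXD1, MXI1, MXD3, MXD4, MNT and MGA. That sum was 66.9 and 61.6 FPKM in the negative control and 63.6 and 64.6 FPKM in NT1_hp2, which overlap. MYC amounted to 0.122 and 0.119 of it in the controls and to 0.0912 and 0.104 of it in NT1_hp2, so both NT1_hp2 libraries were lower. These ratios use the values as deposited, and the part of the GC trend in them was not tested. The MYC difference itself did not pass (limma-trend adjusted p = 0.125) and was −0.08 with length and GC trends removed. The sum includes MXD3, whose level is uncertain.

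By level, MXD4 and MXI1 led in the negative control, at 20.7 ± 2.34 and 19.1 ± 0.0509 FPKM (mean ± SD, n = 2), and their libraries overlapped. MXD3 at 10.8 ± 1.63 and MLX at 10.6 ± 0.817 FPKM overlapped next, followed by the overlapping MYC at 7.76 ± 0.617 and MAX at 7.38 ± 0.805 FPKM. MNT at 5.31 ± 0.0603, MXD1 at 4.85 ± 0.00398, MGA at 3.46 ± 0.199 and MYCN at 0.878 ± 0.185 FPKM each stood apart from their neighbours. In NT1_hp2 the order was MXI1 at 27.6 ± 0.926 and MXD4 at 14.5 ± 0.455 FPKM, which stood apart. Then came MLX at 8.46 ± 0.289 and MXD3 at 7.25 ± 1.61 FPKM, MAX at 7.14 ± 0.162, MXD1 at 6.75 ± 0.387 and MYC at 6.27 ± 0.659 FPKM. Neighbours among MLX, MXD3, MAX, MXD1 and MYC were not separated beyond their spread, apart from MAX, whose lower library was just above the higher MXD1 library (7.03 against 7.02 FPKM). MNT at 4.09 ± 0.0381, MGA at 3.90 ± 0.0109 and MYCN at 0.719 ± 0.132 FPKM were again apart.

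The direction of the members' differences went with their GC content. MGA, MXD1 and MXI1, at 42.0%, 42.7% and 43.7% GC, were higher in NT1_hp2, and MXD4, MXD3 and MNT, at 57.6%, 61.3% and 61.4% GC, were lower. MAX, MLX and MYC lay between, at 51.3%, 51.8% and 53.9% GC. Among all tested genes, the 3582 with 40 to 45% GC had a median log2 difference of 0.13, with 6.95% called higher and 1.62% called lower. The 2214 genes with 55 to 60% GC had a median of −0.22, with 19.5% called lower, and the 1655 genes with 60 to 65% GC a median of −0.29, with 24.8% called lower. The median was −0.10 for the 2549 genes with 50 to 55% GC. MNT and MGA, at −0.31 and 0.14, were close to the medians of their classes, and MAX at −0.04 was above its own. The other 6 lay beyond theirs in the same direction: MXI1 at 0.51 and MXD1 at 0.41, MXD4 at −0.48, MXD3 at −0.52, MLX at −0.29 and MYC at −0.27.

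Removing each library's smooth trends with exon length and GC content from the log2 values left 301 calls among 16350 genes, or 1.84%, with 0.752% higher and 1.09% lower. MXI1 was the 1 member called, at 0.45 (SE 0.046, limma-trend adjusted p = 0.0384). MXD1 was at 0.30 (SE 0.066) and MXD4 at −0.28 (SE 0.065), neither passing (limma-trend adjusted p = 0.0759 and 0.0834). MXD3 was at −0.24, MLX at −0.18, MNT and MYC each at −0.08 and MAX at 0.06, none of which passed (adjusted p from 0.156 to 0.660).

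**Figure D3:**
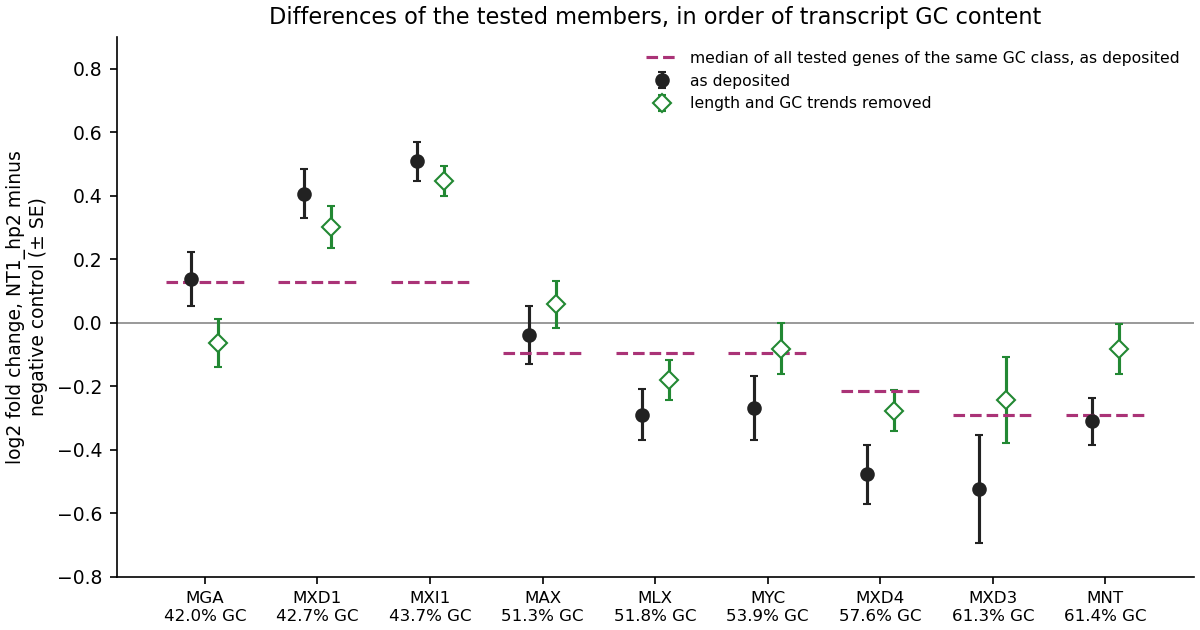
Log2 difference between NT1_hp2 and the negative control with its SE for the 9 tested members, in order of transcript GC content, as deposited (filled circles) and with length and GC trends removed (open diamonds), beside the median of all tested genes in the same GC class (dashed lines). MXI1 moves from 0.51 to 0.45 with the trends removed and MNT from −0.31 to −0.08.

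Genes whose 4 library values most resembled those of a member were sought among 7785 protein-coding genes with a mean of at least 5 FPKM, by Euclidean distance between log2(FPKM + 1) values centred on their mean. Nearest to MXI1 were XBP1, which encodes an unfolded protein response regulator (distance 0.0223), MEF2A, a MADS-box transcription factor (0.0233), and SENP7, a SUMO protease (0.0303). MEF2A was at 15.1 and 14.8 FPKM in the negative control and 22.2 and 21.4 FPKM in NT1_hp2. Among the nearest to MYC were MRPL33 (0.00564), a mitochondrial ribosomal protein gene, and GTPBP6 (0.0163). Among the nearest to MAX were RAB8B (0.0141) and PAIP1 (0.0173). These distances rest on 4 libraries and are descriptions.

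Genes around the network were taken from 11 lists with 134 distinct genes, of which 131 were tested. Of these 5 rose, which is 3.82% against 5.00% of all tested genes, and 15 fell, which is 11.5% against 8.92%. Both shares were near the background. As background for the counts under other settings below, limma-voom called 2711 of all 16362 tested genes higher and 3090 lower. Total-read scaling called 1546 of 16397 higher and 1324 lower.

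Co-activators that MYC recruits had 0 of 12 tested genes higher and 2 lower, with a median log2 difference of −0.07. RUVBL1 and RUVBL2, paired ATPases of chromatin remodelling complexes, fell from 7.67 ± 0.356 to 5.63 ± 0.196 and from 36.2 ± 4.11 to 25.2 ± 0.165 FPKM (limma-trend adjusted p = 0.0416 and 0.0398). Of 15 co-repressors of MXD and MNT proteins, 1 fell and 0 rose, with a median of 0.00072. It was HDAC1, a histone deacetylase of the SIN3 complex, from 85.5 ± 1.70 to 64.5 ± 3.74 FPKM (limma-trend adjusted p = 0.0397). In the MGA complex 1 of 10 genes rose and 0 fell (median −0.01). RNF2, its ubiquitin ligase, went from 8.17 ± 0.0523 to 10.9 ± 0.519 FPKM (limma-trend adjusted p = 0.0400). Among 14 genes of MYC protein turnover and its partner MIZ1, 2 fell and 0 rose (median 0.13). One was the kinase gene AURKA, which fell from 23.4 ± 0.861 to 19.0 ± 0.390 FPKM. The balance of this list varied with the setting. It was 4 higher and 1 lower with total-read scaling and 5 higher and 2 lower with limma-voom. With median-of-ratios scaling it was 0 higher and 1 lower, and with a minimum of 1 CPM in all 4 libraries 2 and 2. With the length and GC trends removed 0 were called in either direction. Of 13 regulators of MYC transcription and mRNA, limma-trend called 0 in either direction (median 0.03), and limma-voom called 4 higher and 2 lower. In limma-voom the co-activators had 1 higher and 3 lower, the co-repressors 2 and 3, and the MGA complex 3 and 1.

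Known MYC targets for nucleolar function and ribosome making included 4 genes that fell and 1 that rose among 20 tested, with a median log2 difference of −0.19. UBTF, the upstream binding factor of RNA polymerase I, fell from 19.7 ± 1.03 to 12.1 ± 0.526 FPKM (log2 −0.66, limma-trend adjusted p = 0.0340) and remained past the threshold with the length and GC trends removed (−0.52, adjusted p = 0.0374). PES1, a factor of large-subunit assembly, fell from 23.4 ± 2.70 to 15.8 ± 0.596 FPKM and NCL, which encodes nucleolin, from 83.4 ± 5.48 to 64.1 ± 1.71 FPKM. NOP56, a core protein of snoRNA particles named after its values were seen, fell from 45.2 ± 3.94 to 33.5 ± 2.05 FPKM. With limma-voom 2 rose and 7 fell. The 1 that rose in limma-trend was WDR43, a small-subunit processome gene, from 15.8 ± 0.165 to 20.3 ± 0.408 FPKM.

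Metabolic and translation targets had 1 of 20 genes lower, the initiation scaffold EIF4G1 (49.6 ± 2.53 to 37.6 ± 1.505 FPKM), and 0 higher, with a median of −0.02. Those counts were 3 higher and 3 lower with total-read scaling and 3 higher and 5 lower with limma-voom. Cell cycle targets had 1 of 11 lower, the replicative helicase gene MCM5 (20.4 ± 0.981 to 14.5 ± 0.715 FPKM), and 0 higher, with a median of −0.07. With the length and GC trends removed 0 were lower and 1 was higher, the S-phase regulator gene E2F1 (log2 0.44, limma-trend adjusted p = 0.0374), which was at 0.09 and did not pass without that correction (adjusted p = 0.445). Genes known to be repressed through MYC and MIZ1 went both ways, 2 higher and 2 lower of 8. NDRG1, a stress-responsive gene, rose from 80.7 ± 1.57 to 117 ± 2.28 FPKM and the growth arrest gene GADD45A from 42.0 ± 0.948 to 52.4 ± 0.823 FPKM. The cyclin-dependent kinase inhibitor genes CDKN1A and CDKN1C fell, from 160.7 ± 20.03 to 114.8 ± 1.03 and from 11.3 ± 1.41 to 7.43 ± 0.975 FPKM. Of 6 tested genes listed here as MondoA and ChREBP targets, 1 rose and 2 fell. Whether each listed gene is a target in these cells was not tested. KLF10, a zinc finger repressor, rose from 35.4 ± 0.836 to 50.7 ± 2.91 FPKM, and the phosphatase gene G6PC3 and the fatty acid synthase gene FASN fell, from 14.9 ± 1.30 to 10.6 ± 0.193 and from 50.4 ± 1.21 to 38.6 ± 2.67 FPKM. With the length and GC trends removed, UBTF, NDRG1 and KLF10 were the 3 of these 20 called genes that still passed.

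**Figure D4:**
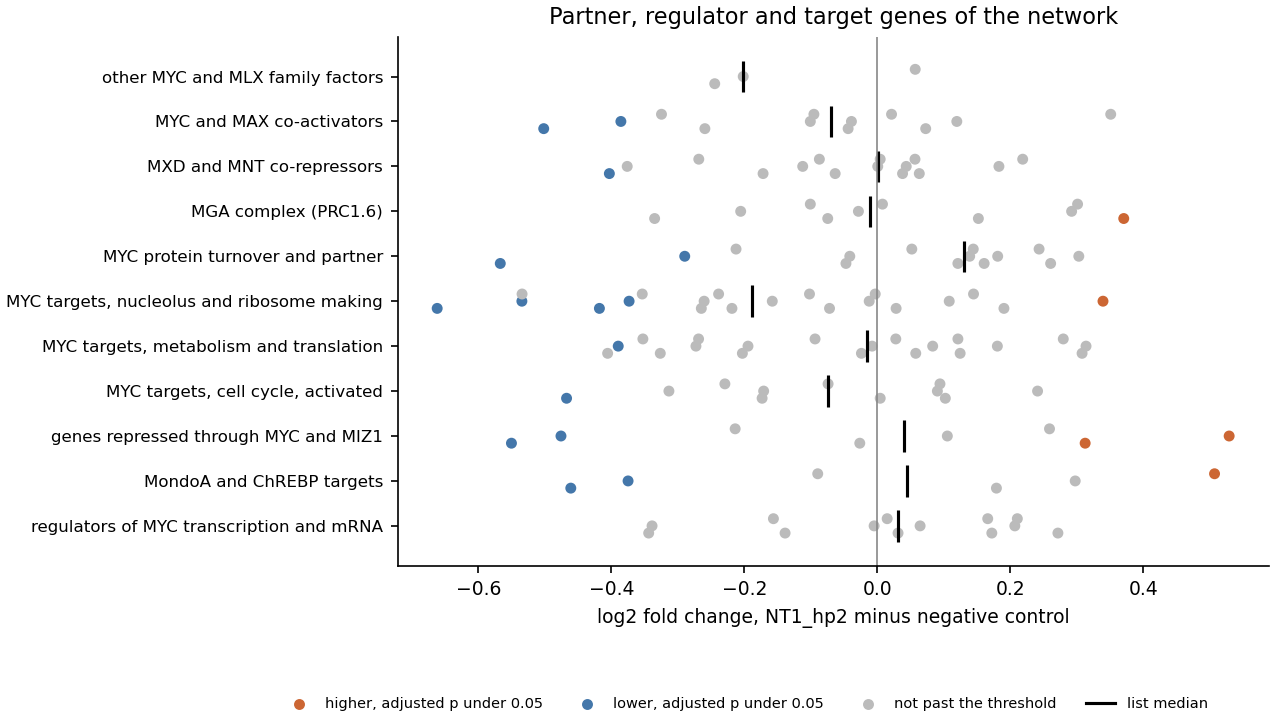
Log2 difference between NT1_hp2 and the negative control for every tested gene of the 11 lists around the network, coloured by call, with a vertical line at each list's median. Called genes appear on both sides of 0, with 5 higher and 15 lower, and list medians run from −0.20 to 0.13.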

How the data were processed

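RNA levels were measured by RNA sequencing in 4 libraries of HEK293A cells, grouped by their titles. The authors deposited 1 value per gene and library, taken here as FPKM. No header names the unit, which follows from the values being reads divided by exon length. The build is GRCh38.p12, per the submitters' processing notes. No aligner, counter or scaling is given in the sources used here. Per the labels' protocols the libraries were made with a NEBNext Ultra RNA kit. Multiplied by the summed exon length in GENCODE 29, 100% of values above 0 came out as whole reads (within 0.01) for 1 constant per library. The library size implied by that constant was 0.962 and 1.001 times the recovered reads in negative control replicates 1 and 3. It was 1.031 and 1.040 times them in NT1_hp2 replicates 2 and 3.

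The comparison used limma 3.58.1 in R 4.3.3 (intensity trend, robust shrinkage) on log2(FPKM + 1), a scale that shrinks changes of low genes. A gene was tested if 2 or more libraries reached 1 FPKM, and Benjamini-Hochberg adjustment ran over every tested gene. SEs are those of the moderated fit. The fits were also run on simulated reads with changes larger than those of the members and without a GC trend. That run does not cover changes of the members' size. No 2 files were identical. Length and GC trends were removed with mgcv 1.9.3, using the longest transcript's GC content. Partial sums, shares and ratios are descriptions. The members and lists were chosen with earlier results of these data known. Named were all members, the up to 3 called genes per list and direction with the smallest p, the MYC and MLX family factors, and the nearest profiles, apart from a few that are not reported here.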

Additional observations from a re-analysis of the deposited data

How the results depend on the processing

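No paired analysis was possible because the groups share only 1 replicate number. The call threshold of 0.05 gave 2278 genes and 3 network members. Counts within 1.5 times of these came from median-of-ratios, upper-quartile and total-read scaling, no robust shrinkage and a pseudocount of 0.1, each with 3 members called. Limma-voom on recovered reads called 5801 of 16362 genes and 6 of 9 members. A minimum of 1 CPM in all 4 libraries gave 4197 of 15728 and 6 of 10, MYCN being among those tested. Protein-coding genes alone gave 4716 of 12149 and 7 of 9. An adjusted p below 0.10 gave 4898 of 16362 and 6 of 9, and the removal of length and GC trends 301 of 16350 and 1 of 9. Without the filter 0 of 36608 genes and 0 of 10 members, MYCN included, passed in limma-trend. At an unadjusted p under 0.05 there were 6778 and 6. Leaving out 1 library gave 0 to 1 genes and 0 to 0 members, with 3315 to 5836 genes and 4 to 6 members at an unadjusted p under 0.05 in limma-trend. The cause of these changes was not tested. MAX was at 0.031 with total-read scaling, 0.057 with length and GC trends removed and −0.136 to 0.060 when 1 library was left out (0.060 without negative control replicate 1), and MGA was at −0.065 with those trends removed, so both turned sign. The other 7 tested members kept their direction in all 15 alternatives. Of 330 list counts, 193 stayed within 1.5 times, and these include counts of 0 in both fits. A count of 0 could hardly move in fits that called at most 1 gene. Count models for recovered reads other than limma-voom were not run, because the deposited values are not counts.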
